A study of Homo sapiens with 30 samples.

Results

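Polyamine metabolism was followed across 10 conditions through 10 genes, taken as the rows with the symbols ODC1, AMD1, SRM, SMS, SAT1, SMOX, PAOX, OAZ1, OAZ2 and AZIN1. All 10 were found among the 23710 gene symbols of the count files and in the FPKM files, where the transcripts of a gene were summed. FPKM is the number of fragments scaled to the length of the transcript and to all mapped fragments of the sample, so levels of different genes can be compared. Between samples this scaling makes no further correction for differences in RNA composition.

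Polyamines (putrescine, spermidine and spermine) are small charged molecules that bind nucleic acids and are needed for growth, and the prostate is known for making and secreting them in large amounts. ODC1 decarboxylates ornithine to putrescine and AMD1 makes the aminopropyl donor from S-adenosylmethionine. SRM adds a first aminopropyl group to give spermidine and SMS a second to give spermine. SAT1 acetylates spermidine and spermine, which marks them for export or for oxidation by PAOX, whereas SMOX oxidizes spermine directly. OAZ1 and OAZ2 are antizymes, which bind ODC1 protein and send it to the proteasome, and AZIN1 is an ODC1 relative without enzyme activity that binds antizymes and so spares ODC1. Antizyme and AMD1 protein levels are also set by translation and turnover, which RNA-seq does not measure.

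The cells were MR49F, an enzalutamide-resistant derivative of the LNCaP prostate cancer line, and V16D, the castration-resistant LNCaP derivative that is its parental line. Each is a single cell line, so the lines may differ in more than drug resistance. By the study's methods MR49F cells were maintained in medium with 10 µM enzalutamide, which is not stated for V16D. How long the MR49F vehicle samples had been without the drug is not stated. In full serum (10% fetal bovine serum), V16D and MR49F cells received vehicle (DMSO) or 10 µM enzalutamide, an antiandrogen, for 24 h. MR49F cells were also held for 72 h in charcoal-stripped serum, from which steroids are depleted, before 24 h of vehicle (DMSO and ethanol), 10 µM enzalutamide, 1 nM DHT (dihydrotestosterone, the main active androgen) or 500 nM JQ-1 (an inhibitor of BET bromodomain proteins). JQ-1 was also combined with enzalutamide or DHT at these doses. For the JQ-1 data, a figure legend of the study refers instead to an experiment with 3 days of treatment. The 24 h is therefore less certain for the conditions with JQ-1. V16D cells in charcoal-stripped serum were not analysed here. Each of the 10 conditions had 3 replicates. Each replicate combined wells of a plate. If these were not separate cultures, the p-values reflect well-to-well spread, which may be technical.

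In full serum 13170504 to 21154962 reads per sample fell on genes (58.4% to 63.5% of all reads in the count files, and 73.0% to 77.8% of those not set aside as aligned to several places), against 982130 to 1813262 (4.49% to 6.67%, and 5.13% to 7.66%) in charcoal-stripped serum. SAT1 therefore rested on 168 to 767 reads per sample in full serum and on 24 to 44 in the vehicle and enzalutamide samples in stripped serum, and SMOX and PAOX on 23 or fewer throughout stripped serum. The libraries kept strand, and how HTSeq was set for strand is not given in the sources used here. Among genes at 1 FPKM or more, 54 overlapped, by 200 or more exon bases, a gene on the opposite strand with at least 10 times their FPKM. From full to stripped serum (MR49F with vehicle), their counts rose relative to their FPKM by a median of 1.24 on the log2 scale. For 8817 genes without any exon overlap on the opposite strand the median was -0.22. The stripped-serum counts may therefore hold reads of the opposite strand and be a small, unequal share of a gene's reads, which bears on every edgeR value given for stripped serum. On FPKM, all 48 calls of members made on counts within stripped serum had the same sign and 47 were called by limma, the exception being AZIN1 with JQ-1 on DHT. Limma on FPKM also called 38.7% of all genes with enzalutamide, 72.1% with DHT, 75.1% with JQ-1 and 78.8% with JQ-1 on DHT. The FPKM come from the same libraries, so this is no independent check. Luminal prostate markers (KLK3, KLK2, HOXB13, KRT8 and KRT18) were at 1.01 FPKM or more in every sample. Basal, blood and fibroblast markers (KRT5, TP63, PTPRC and COL1A2) were at most at 0.0884 FPKM and the endothelial marker PECAM1 at most at 0.768 FPKM. Vehicle replicate 1 of MR49F in full serum stood apart from the other replicates of its group. Its counts differed from theirs with a chi-square per degree of freedom of 9.27 and 10.9, against at most 2.66 for all replicate pairs without it, so tests that use it, and values that it moves, are also given without it. As a check of the treatments, the androgen-induced gene KLK3 (prostate-specific antigen) had log2 fold changes of -1.89 with enzalutamide in V16D, -0.09 with enzalutamide in MR49F in full serum (not called), 1.54 with enzalutamide and 2.28 with DHT in stripped serum, and -5.11 with JQ-1. TMPRSS2, another androgen-induced gene, gave -2.48, -0.19, 2.06, 3.07 and -1.19 in the same order, all called.

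The genes were placed by symbol on GRCh37 with GENCODE release 44. The synthetic enzymes lie at chr2:10580094-10588453 (ODC1, minus strand), chr6:111195973-111220082 (AMD1, plus strand), chr1:11114641-11120077 (SRM, minus strand) and chrX:21958827-22012955 (SMS, plus strand). The catabolic enzymes lie at chrX:23801290-23804327 (SAT1), chr20:4101627-4168394 (SMOX) and chr10:135192765-135205198 (PAOX), all on the plus strand. OAZ1 lies at chr19:2269508-2273489 on the plus strand and OAZ2 at chr15:64979772-64995480 on the minus strand. The annotation names 4 pseudogenes of AMD1, 3 of SRM, 1 of SMS and 1 of OAZ1. Reads aligned to several places were set aside in the counting, so reads shared with these copies could be missing from the counts. OAZ1 overlaps exons of JSRP1 on the opposite strand and OAZ2 those of 1 further gene.

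RefSeq start sites were given for 7 of the 10 genes (SMOX, PAOX and AZIN1 are not shown). The 250 bases before each start were searched on both strands for the E-box CACGTG, which MYC and MAX bind, and for AGAACA or TGTTCT, the repeat unit of androgen response elements. The motifs do not overlap each other. The upstream sequences of SRM, ODC1, SMS and SAT1 are shown because these 4 genes rose most with DHT, and because SRM and SMS fell and ODC1 and SAT1 rose when JQ-1 was added. They are given 5′ to 3′ on the strand of the gene, with the E-box in capitals, at chr1:11120076-11120325 (SRM), chr2:10588454-10588703 (ODC1), chrX:21958577-21958826 (SMS) and chrX:23801040-23801289 (SAT1) in GRCh37. For the second ODC1 start, the 30 bases around the E-box of the window at chr2:10588139-10588388 are shown.
SRM: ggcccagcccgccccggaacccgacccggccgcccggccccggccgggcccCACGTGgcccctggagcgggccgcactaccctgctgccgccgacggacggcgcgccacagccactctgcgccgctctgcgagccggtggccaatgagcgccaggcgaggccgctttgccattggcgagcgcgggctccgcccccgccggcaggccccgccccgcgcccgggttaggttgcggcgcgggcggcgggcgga
ODC1: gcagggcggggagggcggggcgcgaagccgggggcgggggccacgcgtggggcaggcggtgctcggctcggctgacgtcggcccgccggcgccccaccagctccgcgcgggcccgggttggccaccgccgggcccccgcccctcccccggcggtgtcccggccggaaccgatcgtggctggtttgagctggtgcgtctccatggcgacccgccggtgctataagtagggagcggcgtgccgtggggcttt
ODC1 second start: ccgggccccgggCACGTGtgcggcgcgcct
SMS: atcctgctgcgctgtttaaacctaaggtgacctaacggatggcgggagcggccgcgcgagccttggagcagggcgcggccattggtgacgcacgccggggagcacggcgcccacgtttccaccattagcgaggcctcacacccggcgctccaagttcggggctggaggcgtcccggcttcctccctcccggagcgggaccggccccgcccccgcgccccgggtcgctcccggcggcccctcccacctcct
SAT1: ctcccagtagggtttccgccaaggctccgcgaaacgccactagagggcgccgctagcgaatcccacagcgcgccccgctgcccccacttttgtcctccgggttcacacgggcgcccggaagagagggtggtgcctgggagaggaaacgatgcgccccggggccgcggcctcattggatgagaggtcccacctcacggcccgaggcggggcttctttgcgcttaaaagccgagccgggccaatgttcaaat

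An E-box was present before the SRM start, its first base at position -199 from the start, and before the second ODC1 start, at position -29. The windows before the first ODC1 start and before the starts of AMD1, SMS, SAT1, OAZ1 and OAZ2 had none. Across all RefSeq windows of this length, 6.343% (2226 of 35093) held an E-box. The AGAACA repeat unit was in none of these windows, against 12.393% of all windows. These are matches of letters in short windows and no measure of binding.

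OAZ1 and ODC1 were the most abundant transcripts of the pathway in most conditions. In vehicle-treated V16D cells OAZ1 was at 425 ± 3.64 FPKM (mean ± SD, n = 3 here and below), ODC1 at 282 ± 3.65, AMD1 at 208 ± 3.22, SRM at 145 ± 3.80 and SMS at 142 ± 3.87. AZIN1 (39.1 ± 0.379 FPKM), OAZ2 (33.7 ± 0.711) and SAT1 (20.5 ± 0.579) were lower. SMOX (1.86 ± 0.160) and PAOX (1.22 ± 0.339) were the lowest. Among the genes at 1 FPKM or more, ODC1 stood at percentile 98.1 or higher in each of the 10 conditions and OAZ1 at 99.0 or higher.

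The order of the conditions differed from gene to gene. ODC1 was lowest in MR49F cells in stripped serum with vehicle (189 ± 10.5 FPKM) and highest with DHT and JQ-1 (1118 ± 21.9), and JQ-1 alone and enzalutamide with JQ-1 (333 ± 2.99 and 338 ± 6.39) overlapped. SMS was lowest with JQ-1 (68.0 ± 0.749 FPKM) and highest with DHT alone (768 ± 25.7), and its samples with vehicle (84.7 to 95.9 FPKM) and with enzalutamide and JQ-1 (80.9 to 87.6 FPKM) overlapped. SAT1 ran from 9.63 ± 1.12 FPKM in V16D with enzalutamide to 433 ± 14.7 in MR49F with DHT and JQ-1, with the V16D and stripped-serum MR49F vehicle samples next to each other and not overlapping (20.5 ± 0.579 and 17.3 ± 1.88). AMD1 was highest in V16D with vehicle and lowest in MR49F with JQ-1 (22.9 ± 1.03 FPKM). SRM was highest in MR49F with vehicle in full serum (185 ± 5.0 FPKM) and lowest in the 3 conditions with JQ-1, of which JQ-1 alone (36.5 ± 0.489) and enzalutamide with JQ-1 (36.1 ± 0.989) overlapped. AZIN1 ran from 37.2 ± 4.92 to 45.7 ± 1.18 FPKM, the narrowest range in FPKM relative to its level. The low end was MR49F with vehicle in full serum, where replicate 1, the library that stood apart, was at 31.8 FPKM. Its other replicates were at 38.7 and 41.3 FPKM, and without replicate 1 this condition was not the lowest (V16D with vehicle was at 39.1 ± 0.379). In counts scaled to the reads on genes (CPM) it ran from 82.0 to 238, a wider relative range than that of OAZ1 (506 to 758) or OAZ2 (61.6 to 95.7).

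**Figure D1:**
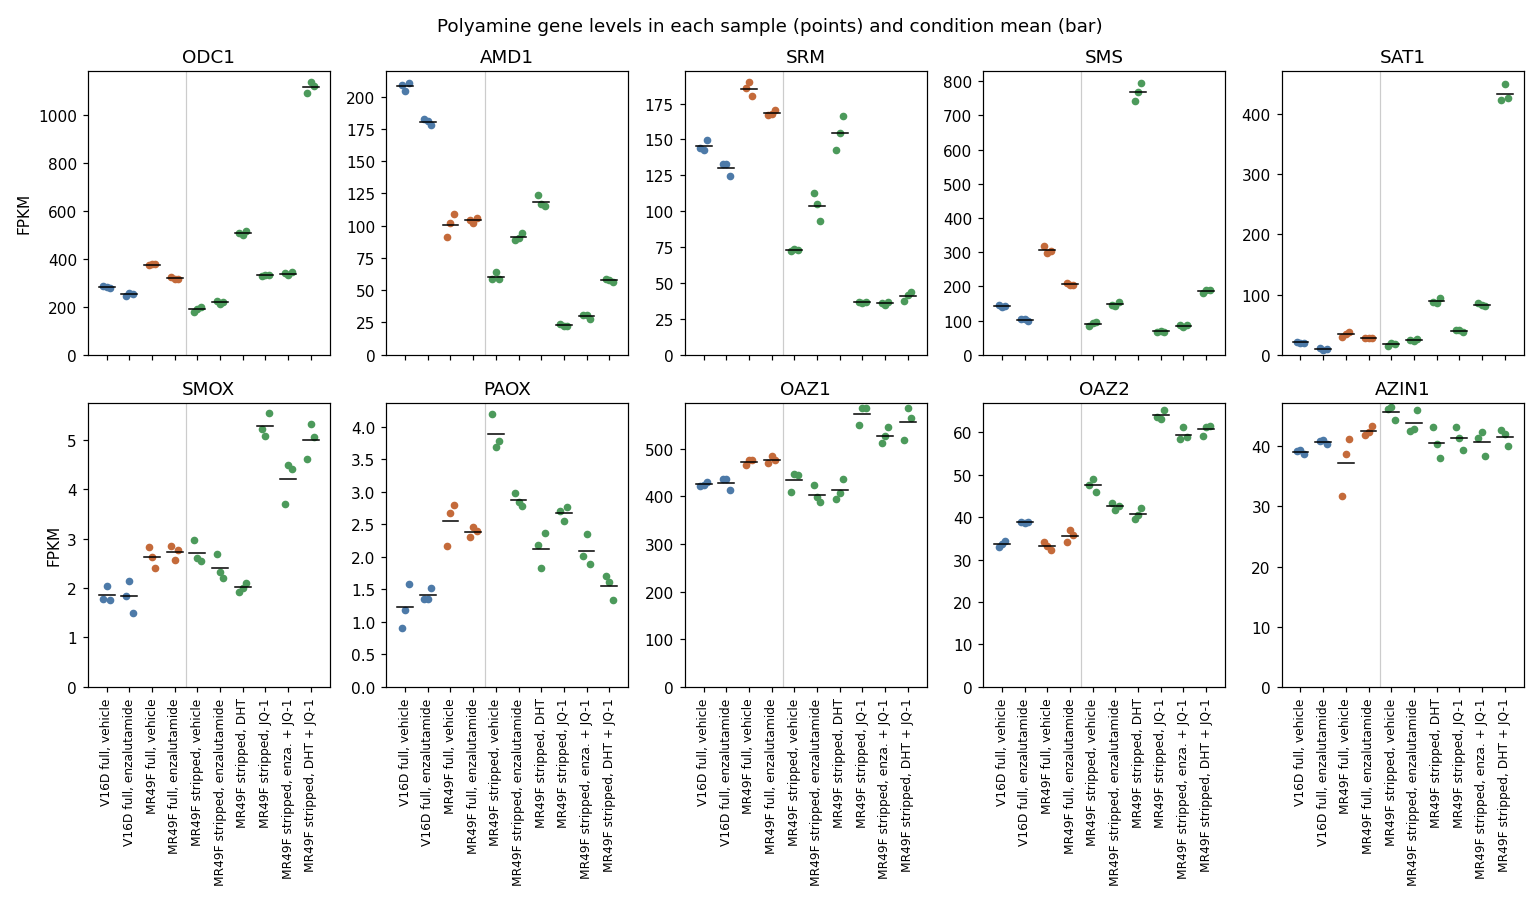
FPKM (linear axes from 0, a scale per panel) of the 10 genes in each of the 30 samples, with points for samples and bars for condition means, V16D in blue, MR49F in full serum in orange and MR49F in stripped serum in green. SMS peaked with DHT alone at 743 to 794 FPKM, whereas ODC1 and SAT1 peaked with DHT and JQ-1 together, at 1095 to 1138 and 423 to 449.6 FPKM.

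The first comparison asked what the antiandrogen does in the androgen-replete parental line. With enzalutamide in V16D cells in full serum, SAT1 fell 2.20-fold and SMS 1.41-fold, and the other enzymes of the synthetic arm fell by small amounts. Of the 10 genes, 5 fell and 1 rose at a Benjamini-Hochberg adjusted p of at most 0.05 in edgeR's quasi-likelihood test on counts, the call used throughout for treatments. Of all 14079 genes tested 37.5% were called, 19.3% lower and 18.2% higher. SAT1 was at 21.2, 20.2 and 20.2 FPKM with vehicle and at 10.5, 8.35 and 10.1 with enzalutamide, groups far apart (log2 fold change -1.13, SE 0.0743, adjusted p = 6.85e-45). SMS was at 146, 139 and 142 FPKM with vehicle and at 106, 104 and 98.7 with enzalutamide, again without overlap (log2 fold change -0.50, SE 0.0260, adjusted p = 2.11e-66). ODC1 (-0.19), AMD1 (-0.23) and SRM (-0.19) fell, and the antizyme OAZ2 rose (0.17), from 33.0 to 34.4 FPKM in the vehicle samples to 38.5 to 38.9. SMOX (-0.05), PAOX (0.11), OAZ1 (-0.02) and AZIN1 (0.02) did not pass the test. The median log2 fold change of the 10 genes was -0.12, against 0.00 for all genes tested. In a wider pathway list of 24 genes (ornithine supply, methionine salvage, hypusine synthesis and transport), 23 were tested, of which 7 rose and 8 fell, none by as much as 1 on the log2 scale.

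In MR49F cells in full serum, SMS fell 1.53-fold with enzalutamide, and ODC1, SAT1 and SRM fell by less. Of the 10 genes 4 fell and none rose, against 8.48% of 13927 genes called (4.62% lower and 3.86% higher). SMS went from 317, 296 and 303 FPKM to 210.2, 203 and 204, with no overlap (log2 fold change -0.61, SE 0.0513, adjusted p = 4.33e-05). ODC1 went from 373, 378 and 378 FPKM to 324, 317 and 318 (log2 fold change -0.28, SE 0.0405, adjusted p = 0.00193). The SAT1 samples were at 30.2, 34.3 and 38.2 FPKM with vehicle and at 28.0, 27.5 and 28.6 with enzalutamide, close to each other but not overlapping (log2 fold change -0.28, adjusted p = 0.0356). SRM had a log2 fold change of -0.18 (adjusted p = 0.0334). The calls of SAT1 and SRM were lost on FPKM (adjusted p = 0.127 and 0.109) and in edgeR when any 1 enzalutamide replicate or vehicle replicate 2 was left out (SAT1 also vehicle replicate 3), with adjusted p up to 0.155 for SAT1 and 0.156 for SRM. AMD1 (0.02), SMOX (-0.08), PAOX (-0.07), OAZ1 (-0.03), OAZ2 (0.06) and AZIN1 (0.15) did not pass. Without vehicle replicate 1, the library that stood apart, 2533 genes in place of 1181 were called, and the 4 calls held, SMS at -0.56, SAT1 at -0.34, ODC1 at -0.26 and SRM at -0.16. Among the 23 wider-pathway genes tested 3 rose and none fell. The median of the 10 members was -0.07, against 0.01 for all genes.

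The difference between the lines in this response was tested as an interaction, the log2 fold change in MR49F minus that in V16D. It was 0.85 for SAT1 (SE 0.108, adjusted p = 1.72e-05) and 0.24 for AMD1 (SE 0.0587, adjusted p = 0.0125), so 2 of 10 members were called, against 6.95% of 14471 genes (4.19% higher and 2.76% lower in MR49F). AMD1 lost this call on FPKM (0.25, adjusted p = 0.0798). Without vehicle replicate 1 the values were 0.79 for SAT1 and 0.19 for AMD1, both called. SMS had a difference of -0.12 (SE 0.0620, adjusted p = 0.305), ODC1 of -0.09, SRM of 0.00, SMOX of -0.04, PAOX of -0.18, OAZ1 of -0.02, OAZ2 of -0.12 and AZIN1 of 0.12, none of them past the threshold. The members had a median of -0.03, against -0.01 for all genes. Of 23 wider-pathway genes 4 had a higher value in MR49F and none a lower one.

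With vehicle in full serum, MR49F cells had more SMS, SAT1 and PAOX RNA than V16D cells and less AMD1 RNA. MR49F cells had been maintained in enzalutamide beforehand, so the line and its earlier drug exposure cannot be told apart. Of the 10 genes 7 were higher and 1 was lower, in a comparison in which 63.7% of all 14013 genes were called (31.9% higher and 31.8% lower). SMS was 2.15-fold higher (log2 fold change 1.10, SE 0.0534, adjusted p = 1.02e-08). AMD1 was at 209, 204 and 210.4 FPKM in V16D and at 91.5, 102 and 109 in MR49F, 2.05-fold lower by counts and without overlap (log2 fold change -1.04, SE 0.0562, adjusted p = 2.63e-08). PAOX (0.93), SAT1 (0.75), SMOX (0.53), ODC1 (0.42), SRM (0.36) and OAZ1 (0.15) were higher too. OAZ2 (-0.02) and AZIN1 (-0.07) did not pass. Without vehicle replicate 1 of MR49F the 8 calls held, SMS at 1.06 and AMD1 at -0.98. Their median was 0.39, against 0.00 for all genes. Of the wider pathway 9 of 23 genes were higher and 4 lower, none by as much as 1 on the log2 scale.

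In stripped serum the question was whether the antiandrogen acts like an androgen in the resistant line once androgens are depleted. With enzalutamide, SMS rose 1.63-fold, SRM 1.45-fold and AMD1 1.44-fold over vehicle in MR49F cells. These were 3 of the 9 members tested, against 7.26% of 11131 genes called (4.38% higher and 2.87% lower), and no member fell. SMS was at 84.7, 91.4 and 95.9 FPKM with vehicle and at 145, 143 and 155 with enzalutamide, without overlap (log2 fold change 0.70, SE 0.0939, adjusted p = 7.08e-05). SRM was at 72.0, 73.7 and 73.0 FPKM with vehicle and at 112, 105 and 93.4 with enzalutamide (log2 fold change 0.53, SE 0.119, adjusted p = 0.00819). AMD1 was at 58.9, 63.8 and 58.6 FPKM with vehicle and at 88.9, 90.3 and 94.5 with enzalutamide (log2 fold change 0.52, SE 0.140, adjusted p = 0.0271). The AMD1 call was lost without enzalutamide replicate 1 or 2 or vehicle replicate 1 or 3 (adjusted p up to 0.135), and the SRM call without enzalutamide replicate 1 or 2 (adjusted p up to 0.0541). ODC1 (0.29, adjusted p = 0.137), SAT1 (0.30, adjusted p = 0.469), PAOX (-0.83), OAZ1 (-0.04), OAZ2 (-0.11) and AZIN1 (-0.02) did not pass, and SMOX had too few reads to be tested.

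Counts and FPKM gave different calls for the other members. On FPKM, limma called 7 members, adding ODC1 (0.21, adjusted p = 0.0117) and SAT1 (0.48, adjusted p = 0.0012) as higher and PAOX (-0.33) and OAZ2 (-0.16) as lower, but it also called 38.7% of 12178 genes (19.3% higher and 19.3% lower). SAT1 was at 15.3, 19 and 17.8 FPKM with vehicle and at 24.9, 23.0 and 25.6 with enzalutamide, but at 28, 32 and 27 reads against 39, 44 and 24, so that the groups were apart in FPKM and overlapped in reads. The median log2 fold change of the members on counts was 0.29, against 0.00 for all genes. On counts 2 of 20 wider-pathway genes rose, neither by as much as 1 on the log2 scale, and none fell. Of all genes 7.26% were called in that test (4.38% higher and 2.87% lower).

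The enzalutamide response of the synthetic enzymes in MR49F cells differed between the sera. The log2 fold change in stripped serum minus that in full serum was 1.36 for SMS (SE 0.0985, adjusted p = 9.77e-10), 0.76 for SRM (SE 0.117, adjusted p = 8.36e-05), 0.62 for ODC1 (SE 0.116, adjusted p = 0.000778) and 0.55 for AMD1 (SE 0.147, adjusted p = 0.0165). On counts, all 4 synthetic enzymes were called and no other member was, against 11.4% of 14178 genes (7.59% higher and 3.79% lower). On FPKM limma called 7 members, and 4425 of 12981 genes (1940 higher and 2485 lower). SMS and SRM fell in full serum and rose in stripped serum, each past the threshold, although the SRM calls were lost without single libraries, as given above. The AMD1 call was lost without any 1 enzalutamide replicate or vehicle replicate 2 or 3 in full serum, and without enzalutamide replicate 1 or vehicle replicate 3 in stripped serum (adjusted p up to 0.101). SMS, SRM and ODC1 kept their calls without each library. Without vehicle replicate 1 in full serum the values were 1.27, 0.71, 0.57 and 0.57, and SAT1 was called as well (0.65, adjusted p = 0.0367). With all libraries SAT1 was at 0.62 (adjusted p = 0.0685), SMOX at -0.24, PAOX at -0.73, OAZ1 at 0.03, OAZ2 at -0.13 and AZIN1 at -0.13. The median of the members was 0.29, against 0.02 for all genes. Of 23 wider-pathway genes 3 had a higher value in stripped serum and 1 a lower one. The sera were used in separate sets of libraries that also differ in the share of reads on genes, and the effects of serum and library set cannot be told apart.

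**Figure D2:**
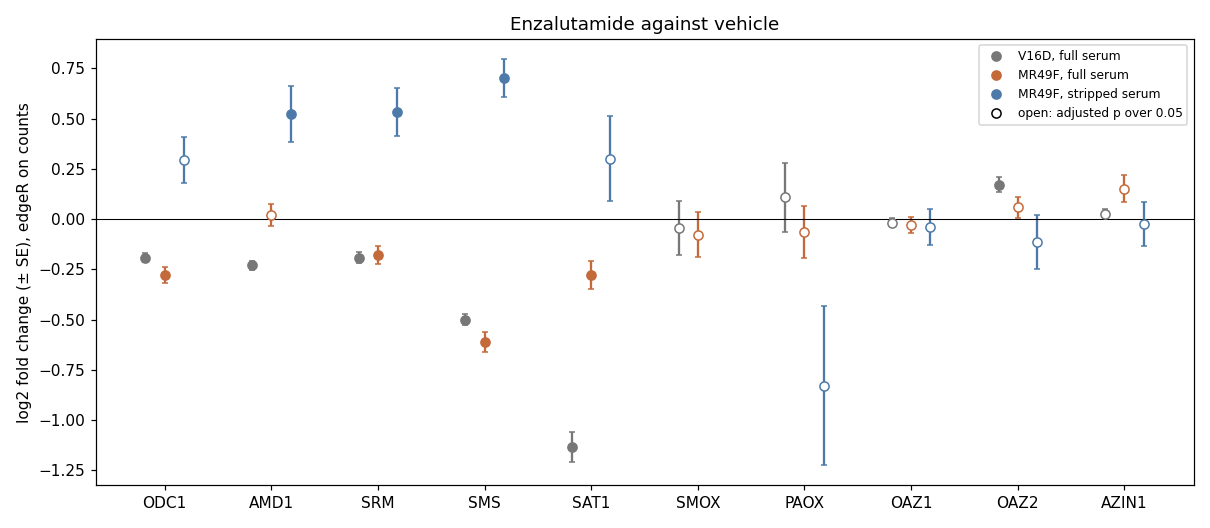
Log2 fold changes with standard errors (edgeR on counts) of enzalutamide against vehicle in V16D and MR49F cells in full serum and in MR49F cells in stripped serum, filled points for adjusted p of at most 0.05. SMS sits at -0.50 and -0.61 in full serum and at 0.70 in stripped serum, and SAT1 is lowest in V16D at -1.13.

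DHT raised the whole synthetic arm and SAT1 in MR49F cells in stripped serum. SMS rose 8.62-fold, SAT1 5.03-fold, ODC1 2.98-fold, SRM 2.18-fold and AMD1 1.91-fold over vehicle. These were 5 of the 9 members tested and 1 further member fell, against 37.5% of 11004 genes called (19.4% higher and 18.1% lower). SMS went from 84.7 to 95.9 FPKM with vehicle to 743, 769 and 794 with DHT (log2 fold change 3.11, SE 0.0881, adjusted p = 1.05e-18), which made it the most abundant of the 10 transcripts. SAT1 was at 88.1, 86.1 and 94.5 FPKM with DHT (log2 fold change 2.33, SE 0.155, adjusted p = 7.78e-12). ODC1 was at 179, 189 and 199.6 FPKM with vehicle and at 508, 502 and 517 with DHT (log2 fold change 1.58, SE 0.0945, adjusted p = 1.05e-12). None of these groups overlapped. SRM reached 143, 154 and 167 FPKM and AMD1 124, 117 and 115 FPKM, both above every vehicle and every enzalutamide sample.

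PAOX, the oxidase of acetylated polyamines, fell with DHT on 13, 11 and 12 reads per vehicle sample against 5, 2 and 7 (log2 fold change -1.22, SE 0.429, adjusted p = 0.0267). This call was lost without DHT replicate 1 or 2 or vehicle replicate 1 or 3 (adjusted p up to 0.144), while on FPKM the change was -0.65 with an adjusted p of 7.34e-05. OAZ1 (0.01), OAZ2 (-0.32, adjusted p = 0.0689) and AZIN1 (-0.22) did not pass, and SMOX was not tested on counts. On FPKM, OAZ2 (-0.22), AZIN1 (-0.17) and SMOX (-0.30) were called lower, in a test that called 72.1% of all genes (28.9% higher and 43.2% lower). For the tested members the median was 0.94, against -0.01 for all genes. Of the wider pathway 6 of 19 genes rose and 3 fell, none by as much as 1 on the log2 scale.

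DHT was also compared with enzalutamide, at doses that differed. With DHT against enzalutamide, SMS was 5.26-fold higher, SAT1 4.06-fold, ODC1 2.41-fold, SRM 1.5-fold and AMD1 1.32-fold. The 5 genes were called among 8 tested and none was lower, against 19.4% of 10916 genes (10.3% higher and 9.13% lower). The log2 difference was 2.40 for SMS (SE 0.0841, adjusted p = 7.52e-14) and 0.40 for AMD1 (SE 0.109, adjusted p = 0.0124), and the AMD1 call was lost without enzalutamide replicate 2 (adjusted p = 0.0816). OAZ1 (0.04), OAZ2 (-0.21) and AZIN1 (-0.21) did not pass. The 8 tested members had a median of 0.49, against -0.02 for all genes, and 3 of 19 wider-pathway genes were higher and none lower. This comparison shares its DHT samples with that of DHT against vehicle.

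JQ-1 alone split the pathway. It lowered AMD1 2.51-fold and SRM 1.80-fold, and it raised ODC1 2.11-fold, SMOX 2.03-fold, SAT1 1.84-fold and the antizyme OAZ1 1.44-fold. Of the 10 members 5 rose and 3 fell, against 46.6% of 11332 genes called (22.8% higher and 23.9% lower). AMD1 was at 24.0, 22.1 and 22.6 FPKM with JQ-1 against 58.6 to 63.8 with vehicle (log2 fold change -1.33, SE 0.148, adjusted p = 2.5e-10). SRM was at 36.5, 36.1 and 37.1 FPKM against 72.0 to 73.7 (log2 fold change -0.85, SE 0.120, adjusted p = 8.2e-08). Both enzymes were below every vehicle sample.

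ODC1 was at 329, 334 and 334 FPKM with JQ-1 against 179 to 199.6 with vehicle (log2 fold change 1.08, SE 0.0812, adjusted p = 1.5e-15). SAT1 was at 41.1, 41.8 and 37.7 FPKM against 15.3 to 19 (log2 fold change 0.88, SE 0.190, adjusted p = 0.000143). OAZ1 was at 549, 586 and 585 FPKM against 409.6, 446 and 445 (log2 fold change 0.53, SE 0.0675, adjusted p = 9.45e-09). None of these groups overlapped. SMOX rose on 19, 22 and 23 reads against 10, 8 and 9 (log2 fold change 1.02, SE 0.321, adjusted p = 0.00774).

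SMS fell slightly with JQ-1, from 84.7 to 95.9 FPKM to 67.6, 68.8 and 67.5 (log2 fold change -0.24, adjusted p = 0.0361), and OAZ2 rose slightly (0.32, adjusted p = 0.0213). Both of these calls were lost in edgeR without JQ-1 replicate 1 or 2 or vehicle replicate 2 or 3, with adjusted p up to 0.225 for SMS and 0.120 for OAZ2, and DESeq2 called neither them nor SMOX. Over all genes DESeq2 called 3705, against 5284 in edgeR. PAOX (-0.34) and AZIN1 (0.10) did not pass. AZIN1 was -0.14 on FPKM and called there (adjusted p = 0.013, with 75.1% of all genes called, 32.5% higher and 42.6% lower), so no direction can be given for it. The 10 members had a median of 0.21, against 0.00 for all genes. In the wider pathway 3 of 20 genes rose and 6 fell, none by as much as 1 on the log2 scale.

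AMD1, SRM and SMS also fell, and ODC1, SAT1, SMOX, OAZ1 and OAZ2 also rose, when JQ-1 was added to enzalutamide or DHT. On enzalutamide, 5 members rose and 3 fell among 9 tested, against 45.1% of 10863 genes called (22.0% higher and 23.2% lower). On DHT 6 rose and 3 fell among 9, against 54.7% of 10779 genes (26.7% higher and 28.0% lower). SRM, at 143 to 167 FPKM with DHT, was at 37.6, 41.6 and 43.5 with DHT and JQ-1 (log2 fold change -1.70, SE 0.106, adjusted p = 7.28e-16). SMS fell from 743 to 794 FPKM to 181, 189 and 190.4 (log2 fold change -1.96, SE 0.0733, adjusted p = 1.95e-22), which still left it above every vehicle sample. AMD1 fell to 58.3, 58.1 and 56.4 FPKM (log2 fold change -0.94, SE 0.0965, adjusted p = 2.76e-10).

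SAT1 and ODC1 went the other way and reached their highest levels with DHT and JQ-1 together. SAT1 was at 423, 449.6 and 426 FPKM, 4.73-fold above DHT alone (log2 fold change 2.24, SE 0.0913, adjusted p = 2.31e-21). ODC1 was at 1095, 1138 and 1122 FPKM, 2.47-fold above DHT alone (log2 fold change 1.30, SE 0.0703, adjusted p = 1.12e-17). OAZ1 (0.52), OAZ2 (0.53), SMOX (1.45) and AZIN1 (0.32) rose as well, the last only on counts, since AZIN1 lost its call without DHT replicate 2 or DHT and JQ-1 replicate 1 (adjusted p up to 0.386) and on FPKM (0.04, adjusted p = 0.502). PAOX was not tested on counts on either background and had log2 fold changes on FPKM of -0.29 on DHT and -0.33 on enzalutamide, both called. The tests on FPKM called 78.8% of all genes on DHT (35.5% higher and 43.3% lower) and 75.7% on enzalutamide (31.2% higher and 44.4% lower). The 9 tested members had a median of 0.52, against 0.00 for all genes.

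On enzalutamide, JQ-1 changed AMD1 by -1.49, SRM by -1.33 and SMS by -0.77, and ODC1 by 0.83, SAT1 by 1.71 and OAZ1 by 0.47 on the log2 scale, all with adjusted p of 3.32e-05 or less. SMOX (1.16, adjusted p = 0.029) lost its call without replicate 1 or 3 of enzalutamide or 2 or 3 of enzalutamide with JQ-1 (adjusted p up to 0.123). OAZ2 (0.34, adjusted p = 0.0467) lost it without replicate 1 or 2 of enzalutamide or 1 or 3 of enzalutamide with JQ-1 (adjusted p up to 0.262). AZIN1 (-0.06) did not pass. The median of the 9 tested members was 0.34, against 0.00 for all genes. In the wider pathway, 3 of 19 genes rose on enzalutamide and 6 fell, and 5 of 19 rose on DHT and 8 fell. The arginine and ornithine transporter SLC7A1 fell most on enzalutamide (-1.53) and on DHT (-1.76). OAT, which interconverts ornithine and glutamate semialdehyde, rose on enzalutamide (1.21). EIF5A, the protein that carries the spermidine-derived residue hypusine, fell on DHT (-1.15), as did MTAP (-1.10), which clears the by-product of both aminopropyl transfers.

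**Figure D3:**
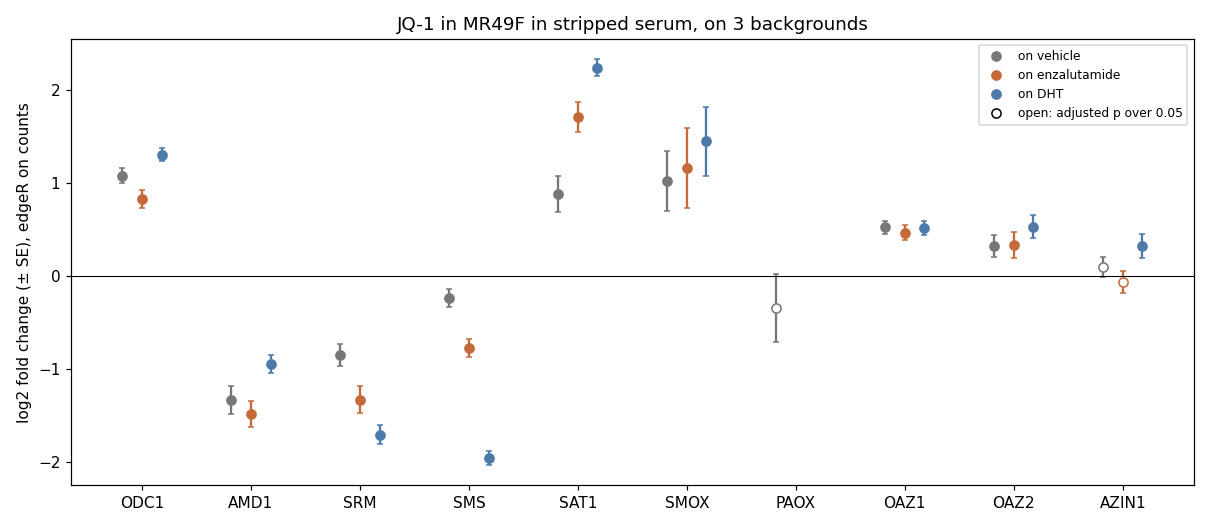
Log2 fold changes with standard errors (edgeR on counts) of JQ-1 in MR49F cells in stripped serum on vehicle, on enzalutamide and on DHT, filled points for adjusted p of at most 0.05. AMD1, SRM and SMS lie below 0 on each background and ODC1, SAT1, SMOX, OAZ1 and OAZ2 above it, and SMS runs from -0.24 on vehicle to -1.96 on DHT.

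With JQ-1 present, DHT still raised SAT1, ODC1, SMS and AMD1, but not detectably SRM. DHT with JQ-1 against JQ-1 alone gave 4 higher members among 9 tested and none lower, against 22.1% of 10847 genes (12.3% higher and 9.83% lower). SAT1 was 13.1-fold higher (log2 fold change 3.71, SE 0.0924, adjusted p = 1.03e-39), ODC1 3.53-fold (1.82), SMS 2.64-fold (1.40) and AMD1 2.53-fold (1.34), with no overlap of the samples. SRM was at 37.6, 41.6 and 43.5 FPKM against 36.1 to 37.1 (log2 fold change 0.29, SE 0.126, adjusted p = 0.0975), and on FPKM this was called (0.16, adjusted p = 0.0341), as were 53.3% of all genes (17.2% higher and 36.1% lower). SMOX (-0.01), OAZ1 (0.01), OAZ2 (-0.09) and AZIN1 (0.02) did not pass. The median over the members was 0.29, against 0.00 for all genes. Among 20 wider-pathway genes 2 rose and none fell.

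The interaction of DHT with JQ-1, the DHT response with JQ-1 minus that without, was called for 3 members, against 12.3% of 11572 genes (5.79% higher and 6.55% lower). It was -1.72 for SMS (SE 0.115, adjusted p = 5.2e-16), -0.85 for SRM (SE 0.159, adjusted p = 0.000128) and 1.36 for SAT1 (SE 0.209, adjusted p = 4.86e-06). The 2 aminopropyl transferases therefore responded less to DHT in the presence of JQ-1, and SAT1 responded more, and leaving out any single library ended none of these 3 calls. ODC1 (0.23, adjusted p = 0.161), AMD1 (0.39, adjusted p = 0.185), SMOX (0.43), PAOX (-0.47), OAZ1 (-0.01), OAZ2 (0.21) and AZIN1 (0.22) did not pass on counts. On FPKM the interaction was called for 8 members, among them ODC1 (0.32, adjusted p = 0.000585) and AMD1 (0.34, adjusted p = 0.000849), and for 48% of all genes (25% higher and 23% lower). The 10 members had a median interaction of 0.22, against 0.00 for all genes. In the wider pathway none of 20 genes had a higher value and 4 a lower one.

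**Figure D4:**
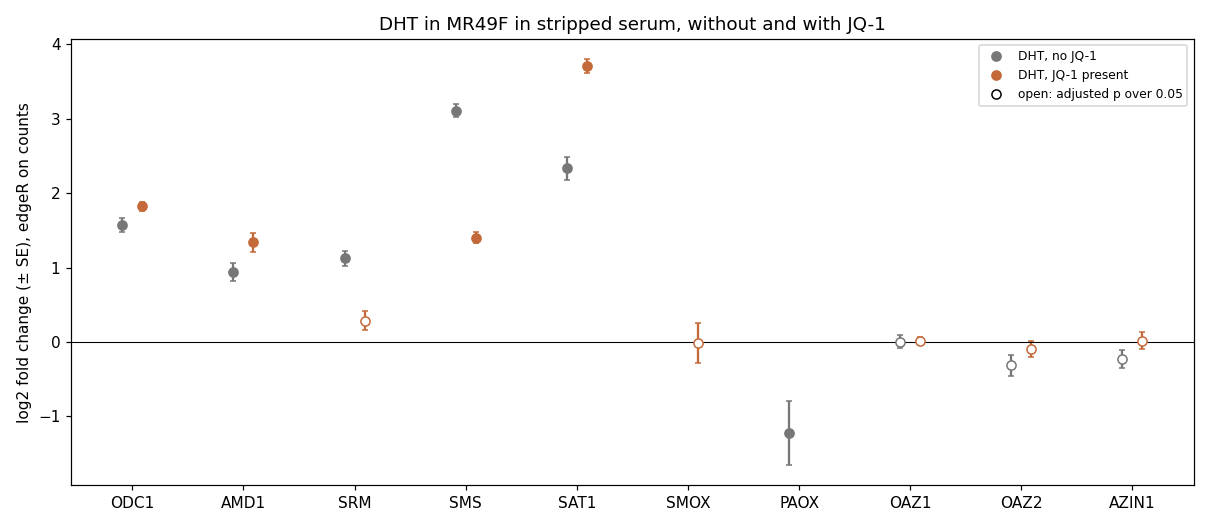
Log2 fold changes with standard errors (edgeR on counts) of DHT in MR49F cells in stripped serum without JQ-1 (against vehicle) and with JQ-1 (against JQ-1), filled points for adjusted p of at most 0.05. SMS drops from 3.11 to 1.40 and SRM from 1.13 to 0.29 when JQ-1 is present, whereas SAT1 goes from 2.33 to 3.71.

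Enzalutamide with JQ-1 against JQ-1 alone raised SAT1 and no other member past the threshold. SAT1 was at 86.1, 82.5 and 81.0 FPKM against 41.1, 41.8 and 37.7, a 2.20-fold rise (log2 fold change 1.14, SE 0.141, adjusted p = 3.21e-12). This was 1 of 9 members tested, against 4.50% of 10708 genes called (3.16% higher and 1.34% lower). ODC1 (0.05), AMD1 (0.37), SRM (0.06), SMS (0.17), SMOX (-0.20), OAZ1 (-0.09), OAZ2 (-0.10) and AZIN1 (-0.18) did not pass. On FPKM 5 members were called, with AMD1 (0.36) and SMS (0.31) higher and SMOX (-0.27) and PAOX (-0.26) lower beside SAT1 (1.03), against 15.9% of all genes (6.38% higher and 9.49% lower). The median of the members was 0.05, against 0.00 for all genes. Among 20 wider-pathway genes 1 rose and 1 fell.

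The interaction of enzalutamide with JQ-1 was called for 1 member, SMS (-0.53, SE 0.133, adjusted p = 0.0372), against 0.895% of 11625 genes (0.49% higher and 0.404% lower). The SMS call was lost without vehicle replicate 1 or 2, enzalutamide replicate 1 or 2, JQ-1 replicate 1 or 3, or enzalutamide with JQ-1 replicate 2 or 3 (adjusted p up to 0.186) and in DESeq2, and on FPKM it was -0.39 with an adjusted p of 0.00221, where 19.2% of all genes were called (7.55% higher and 11.6% lower). SAT1 had an interaction of 0.84 (SE 0.250, adjusted p = 0.103) on counts and of 0.55 (adjusted p = 0.00227) on FPKM. SRM (-0.47), ODC1 (-0.25), AMD1 (-0.16), SMOX (0.15), PAOX (0.02), OAZ1 (-0.05), OAZ2 (0.02) and AZIN1 (-0.15) did not pass on counts. The median over the 10 members was -0.10, against 0.01 for all genes. In the wider pathway none of 21 genes was called by edgeR, 6 had an unadjusted p under 0.05, DESeq2 called 0 and limma on FPKM 7 of 22.

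The balance of the 2 aminopropyl transferases shifted with treatment. The SMS level was 1.24 ± 0.0681 times the SRM level in FPKM with vehicle in stripped serum (1.18 to 1.31 over the 3 samples), 4.98 ± 0.217 times with DHT (4.77 to 5.20) and 4.58 ± 0.227 times with DHT and JQ-1 (4.37 to 4.82). The last 2 groups overlapped, although both enzymes were several-fold lower with JQ-1. With JQ-1 alone the ratio was 1.86 ± 0.0434 and with enzalutamide 1.44 ± 0.196, the latter overlapping with vehicle. With enzalutamide and JQ-1 together it was 2.35 ± 0.0552 (2.31 to 2.41), above every sample of either treatment alone. In full serum it fell with enzalutamide in both lines, from 0.980 ± 0.0328 to 0.790 ± 0.00680 in V16D and from 1.65 ± 0.0789 to 1.22 ± 0.0327 in MR49F, without overlap. Without vehicle replicate 1 the MR49F vehicle ratio was 1.62. These ratios of levels are given without a test.

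Transcripts could be told apart for some members. SAT1 had a coding transcript (NM_002970) and a noncoding one (NR_027783), which made up 9.29% to 10.5% of the SAT1 FPKM in the condition means in full serum and 1.03% to 2.58% in stripped serum. Its level with DHT and JQ-1 was 6.68 FPKM, against 0.463 with vehicle. SMS came almost wholly from NM_004595, at 99.07% or more of its FPKM in every condition mean. AZIN1 was split between NM_148174 and NM_015878, the latter at 15.4% to 25.7%. ODC1, SRM, OAZ1 and OAZ2 each had 1 transcript in the files. Shares of AMD1 varied between replicates, its minor transcript NM_001033059 making up 11.2% to 17.8% in the vehicle samples of V16D. In the vehicle samples of MR49F in full serum it made up 29.0% in replicate 1, the library that stood apart, and 0.973% and 1.05% in the other replicates.

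Among 8889 genes, the 3 closest to ODC1 over the 10 condition means included GLUL and NDFIP2, with root mean square differences of 0.207 and 0.252 on the centred log2(FPKM + 1) scale. GLUL, glutamine synthetase, went from 28.9 FPKM with vehicle in stripped serum to 72.7 with DHT and 179.6 with DHT and JQ-1. The 3 closest to SAT1 were KLF5, LIFR and CHST2, at 0.517, 0.568 and 0.590, so they followed it less closely. LIFR went from 6.73 FPKM with vehicle to 54.6 with DHT and 73.1 with DHT and JQ-1. The condition means share vehicle groups and libraries, and this likeness is a description.

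Stripped and full serum were compared in vehicle-treated MR49F cells on FPKM, because the share of reads counted on genes differed between the sets. In stripped serum SMS was 3.35-fold lower, SRM 2.52-fold, ODC1 1.99-fold, SAT1 1.92-fold and AMD1 1.65-fold, on the log2(FPKM + 1) scale in limma. Of the 10 members 5 were lower and 3 higher, against 73.3% of 12665 genes called (39.2% lower and 34.1% higher). SMS was at 84.7 to 95.9 FPKM in stripped and 296 to 317 in full serum (log2 difference -1.74, SE 0.0618, adjusted p = 5.61e-07). OAZ2 (0.51), PAOX (0.47) and AZIN1 (0.30) were higher on FPKM, OAZ1 (-0.13) and SMOX (0.03) did not pass. On counts OAZ2 was at 0.02 and not called (adjusted p = 0.881 in edgeR). AZIN1 turned to -1.05 on counts, also past the threshold, and lost its call on FPKM without vehicle replicate 1 or 2 in stripped serum (adjusted p up to 0.0690), so no direction holds for it. Between the units the log2 difference moved by -1.12 for ODC1, -1.30 for AMD1, -1.37 for AZIN1 and -0.54 for OAZ2 from FPKM to counts, against a median of -0.21 over 7727 genes, and by at most 0.302 for SRM, SMS, SAT1 and OAZ1. Without vehicle replicate 1 in full serum, SMS was at -1.71 and ODC1 at -1.0. The median difference of the members was -0.43, against -0.03 for all genes. In the wider pathway 4 of 23 genes were higher and 14 lower on FPKM. Among the lower were AGMAT (-1.11), an agmatinase, and DOHH (-1.02), which completes hypusine. On counts DOHH was lower too, with means of 12.4 CPM in stripped and 25.7 CPM in full serum. AGMAT went the other way on counts, with means of 5.13 CPM in stripped and 2.504 CPM in full serum. Its samples did not overlap there, so no direction holds for AGMAT. In bulk RNA, fewer cells of a kind and less RNA per cell cannot be told apart, and serum cannot be told apart from the library set.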

How the data were processed

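The 30 libraries of 10 conditions were RNA-seq libraries. According to the labels and the study's methods, polyadenylated RNA went into strand-specific SureSelect libraries, which were read from a single end for 50 bases. Alignment by the authors was to GRCh37 with TopHat2 2.0.9. The authors deposited raw read counts per RefSeq symbol from HTSeq, not normalized, and rows that name no gene, which held all reads outside the 58.4% to 63.5% (full serum) and 4.49% to 6.67% (stripped serum) on genes, were kept out of library sizes and tests. The authors further deposited FPKM for each RefSeq transcript (Cufflinks 2.1.1), scaled to transcript length and mapped fragments, which were summed here per symbol.

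Tests on counts used edgeR 4.0.16 in R 4.3.3 (TMM, glmQLFit and glmQLFTest) after filterByExpr, whose minimum count was 10 and minimum total 15, and each fit held the compared groups alone. P-values were adjusted by Benjamini-Hochberg over all genes tested and called at 0.05. Standard errors came from the fold change and its F statistic. Interactions were contrasts of group means. Stripped against full serum was tested with limma 3.58.1 on log2(FPKM + 1), for genes at 1 FPKM or more in at least 3 samples, and a fold change there is on that scale, which understates changes of low genes. Values of members in the text are FPKM unless reads are named.

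Samples were grouped by their labels. The 10 members and the wider list were chosen with earlier results of these data known. The named genes are all 10 members in every comparison, wider-list genes called with a log2 fold change of at least 1 in size, KLK3 and TMPRSS2 once, and the 3 genes closest in pattern to ODC1 and to SAT1. Some items that this rule or the marker list holds are not reported here. Alternatives were other filters, DESeq2 1.42.0 size factors and Wald test, all groups in a single fit, the replicate number as a block, limma on FPKM with pseudocounts of 1 and 0.1, and each sample left out. No replicates held identical values, with a chi-square per degree of freedom of 1.12 or more for every pair. The shift of counts against FPKM at genes overlapping on opposite strands (GENCODE exons, 0.5 CPM added before log2) was computed after the data were seen. The fits were tested on simulated data. Upstream sequences were RefSeq windows matched by letters to GRCh37, for 7 of the 10 members. Figures were drawn with Python 3.11.15 and matplotlib 3.10.9.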

Additional observations from a re-analysis of the deposited data

Results flagged for a closer look

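The 10 differences below, between cell lines, sera or cells with and without JQ-1, passed an interaction test in edgeR at an adjusted p of at most 0.05, and the values are differences of log2 fold changes.

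Between the cell lines, the enzalutamide response was higher in MR49F than in V16D for SAT1 (0.85) and AMD1 (0.24), with 6.95% of all genes called. Between the sera, it was higher in stripped than in full serum for SMS (1.36), SRM (0.76), ODC1 (0.62) and AMD1 (0.55). In that test 11.4% of all genes were called, and serum and library set cannot be told apart. With JQ-1 present, the DHT response was lower for SMS (-1.72) and SRM (-0.85) and higher for SAT1 (1.36), with 12.3% of all genes called. The enzalutamide response with JQ-1 present was lower for SMS (-0.53), with 0.895% of all genes called. The values for AMD1 between the lines on FPKM (0.25, adjusted p = 0.0798) and for SMS with enzalutamide and JQ-1 in DESeq2 did not pass. In edgeR, leaving out single libraries ended the calls of AMD1 between the sera (adjusted p up to 0.101) and of SMS with enzalutamide and JQ-1 (up to 0.186). Groups of 3 samples were not tested for single outlying values.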

How the results depend on the processing

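Numbers of members called are given. On FPKM with limma, MR49F with enzalutamide in full serum gave 2 called members in place of 4 under pseudocounts of 1 and 0.1, without the filter and median-centred (centring chosen after seeing the data), and the cell line difference 1 in place of 2, except median-centred. Enzalutamide in stripped serum gave 7 in place of 3 in all 4 FPKM settings, its response with JQ-1 5, 5, 3 and 4 in place of 1, the interaction of enzalutamide with JQ-1 5, 5, 3 and 3 in place of 1, the interaction of DHT with JQ-1 8, 8, 6 and 8 in place of 3, and the interaction with serum 7 with a pseudocount of 1 and median-centred in place of 4 (over all genes 4425 of 12981 with a pseudocount of 1, against 1613 of 14178 on counts). Over all genes, limma with a pseudocount of 1 called 786 in place of 1006 for the cell line difference. It called 1865 in place of 482 for enzalutamide with JQ-1 against JQ-1 alone. For the interactions with JQ-1 it called 2389 in place of 104 (enzalutamide) and 5983 in place of 1428 (DHT). DESeq2 called 5 members with JQ-1 in place of 8 and 0 for the interaction of enzalutamide with JQ-1. Over all genes with JQ-1 it called 3705 of 11332, against 5284 in edgeR. AZIN1 with JQ-1 went from 0.10 to -0.14, -0.15, -0.14 and -0.11 in these FPKM settings, and between sera from 0.30 to -1.05 with edgeR on counts. The cause was not tested.

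Leaving out 1 sample gave 2 to 4 called members for MR49F with enzalutamide in full serum, 1 to 4 for enzalutamide in stripped serum and 0 to 1 for the interaction of enzalutamide with JQ-1. Of the 80 calls over all 16 comparisons, 63 of 72 compared were kept by DESeq2 and 68 of 72 by limma on log2(FPKM + 1). Over all genes, limma on log2(FPKM + 1) called 575 in place of 1181 with enzalutamide in MR49F in full serum but, in stripped serum, 4709 in place of 808 with enzalutamide, 8787 in place of 4122 with DHT and 9170 in place of 5284 with JQ-1, and DESeq2 called 387 with enzalutamide and 53 in place of 104 for its interaction with JQ-1. With all groups in a single fit 2558 were called for MR49F in full serum. The reads per gene in stripped serum limit what small changes of SAT1, SMOX and PAOX can be seen.

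Replicate numbers are not a pairing by the labels, and deviations of same-numbered samples correlated between -0.181 and 0.178, above 0.1 for all pairs in no comparison. With the number as a block, all 80 calls were kept and ODC1 with enzalutamide in stripped serum was added, for 4 members in place of 3, while 1323 genes in place of 808 were called there. In that comparison 3 of 6 samples correlated best with their own number.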
